A study of Homo sapiens with 4 samples.

Results

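The very long genes of Karpas 299 cells were taken as every gene counted on its own strand whose annotated span was at least 300 kb, with 1 entry per symbol. This length rule uses no measured value. It gave 761 of 22798 genes. Karpas 299 is an established human T cell line from a CD30-positive anaplastic large cell lymphoma. Nascent RNA was measured by Bru-seq: bromouridine was present for 30 min, and the RNA that had taken it up was captured and sequenced, so that introns and exons are both read. Of the 4 libraries, the first pair came from cells given DMSO, the solvent, or the drug SM-164. This bivalent Smac mimetic is an antagonist of inhibitor of apoptosis (IAP) proteins. The second pair came from cells laid on Chinese hamster ovary cells (CHO) or on CHO cells with the CD30 ligand on their surface (CD30L+ CHO), and then collected by pipetting; these are called the co-culture libraries, and the first pair the drug libraries. Exposure lasted 3 h in all 4, with the label present at its end, and no drug dose was found in the labels. Each condition has 1 library of 1 cell line, so no difference between conditions has a replicate check, no p-value is given, and intervals cover counting error only.

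RNA polymerase II moves along a gene at a limited speed, and a gene of this length takes it hours to cross. Most of such a gene is intron, which nascent RNA methods read directly. Many of the longest human genes encode adhesion molecules, synaptic proteins and ion channels of neurons, and several coincide with common fragile sites, regions that break when replication is stressed. Other very long genes encode transcription factors, signalling enzymes and regulators of the actin cytoskeleton that lymphocytes use. A level below is an RPKM, the deposited number of reads per kilobase of counted gene, scaled to the library total. A gene was called transcribed at an RPKM of at least 0.5. Values in sequence are given in the order DMSO, SM-164, CHO and CD30L+ CHO.

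The rule is one of length alone, and 67 of the 761 features were of doubtful extent. They were counted over less than 50% of their span, spanned more than 2.5 Mb, carried a microRNA symbol, or had a listed length unlike their span. The 5 longest, ANKRD20A, ANKRD20A3, RGPD, MIR4315 and MIR4509, were of this kind. ANKRD20A, a multicopy family, spanned 25598471 bases and was counted over 42815 of them. Among the 67, MIR548W was the only feature with a mean RPKM of at least 0.5, at 0.752, 0.765, 0.653 and 0.816. It overlaps the span of TANC2, which was counted over 236567 of its 418170 bases, so the split of reads between the 2 symbols is uncertain. Just inside the limit lay CACNA1A (300019 bases), NOS1AP (300233) and MGMT (300330), with mean RPKM of 0.0064, 0.0301 and 0.0622. Just outside lay NUBPL (299839 bases), ST18 (299048) and JMJD1C (298735), with mean RPKM of 0.45, 0.000905 and 1.35.

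Promoters are shown first for the 3 members with the highest log2 ratios of RPKM + 0.25 on CD30L+ CHO over CHO, among those at a mean RPKM of 0.5 or more there (FNDC3B, NTRK2 and ARHGAP24), and then for 3 of the members with the highest levels (TANC2, ELMO1 and SND1). Each is the stretch of 250 bases before the outermost RefSeq start of the gene, read 5′ to 3′ on the gene's strand, in build GRCh38.p14, while all gene positions elsewhere are in hg19. Capitals mark CpG dinucleotides.
FNDC3B, chr3:172039328-172039577 (+): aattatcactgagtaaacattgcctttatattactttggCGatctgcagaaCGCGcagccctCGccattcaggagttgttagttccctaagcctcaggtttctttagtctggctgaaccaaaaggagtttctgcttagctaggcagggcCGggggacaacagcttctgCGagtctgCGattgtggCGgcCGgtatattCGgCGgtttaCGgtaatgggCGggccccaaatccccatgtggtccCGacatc
NTRK2, chr9:84669056-84669305 (+): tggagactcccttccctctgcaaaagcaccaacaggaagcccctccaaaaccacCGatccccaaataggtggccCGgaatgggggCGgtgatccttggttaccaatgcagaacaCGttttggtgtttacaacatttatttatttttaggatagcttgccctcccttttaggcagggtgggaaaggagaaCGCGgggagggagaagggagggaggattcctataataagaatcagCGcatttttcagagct
ARHGAP24, chr4:85474900-85475149 (+): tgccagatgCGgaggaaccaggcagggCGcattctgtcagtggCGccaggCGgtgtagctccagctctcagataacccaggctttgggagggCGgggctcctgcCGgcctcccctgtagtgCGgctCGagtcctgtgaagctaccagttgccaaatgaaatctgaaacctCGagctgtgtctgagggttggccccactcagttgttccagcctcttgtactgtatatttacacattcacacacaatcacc
TANC2, chr17:62965985-62966234 (+): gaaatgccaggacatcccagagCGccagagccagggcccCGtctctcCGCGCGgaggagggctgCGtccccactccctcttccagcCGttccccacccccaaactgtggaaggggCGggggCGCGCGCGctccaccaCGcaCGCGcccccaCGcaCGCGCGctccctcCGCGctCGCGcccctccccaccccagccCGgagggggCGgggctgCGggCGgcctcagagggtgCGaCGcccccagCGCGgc
ELMO1, chr7:37449327-37449576 (-): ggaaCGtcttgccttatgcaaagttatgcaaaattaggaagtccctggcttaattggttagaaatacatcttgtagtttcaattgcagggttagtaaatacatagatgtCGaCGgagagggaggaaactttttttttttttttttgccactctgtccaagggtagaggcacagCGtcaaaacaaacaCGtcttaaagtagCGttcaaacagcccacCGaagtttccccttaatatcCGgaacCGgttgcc
SND1, chr7:127651944-127652193 (+): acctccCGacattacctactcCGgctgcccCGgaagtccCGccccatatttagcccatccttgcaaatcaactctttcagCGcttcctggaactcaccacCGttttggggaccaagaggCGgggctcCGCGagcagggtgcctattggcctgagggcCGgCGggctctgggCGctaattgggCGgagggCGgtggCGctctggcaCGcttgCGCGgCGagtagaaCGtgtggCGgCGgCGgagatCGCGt

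These windows ranged widely in composition. TANC2 held 31 CpG dinucleotides at a GC content of 77.6%, whereas NTRK2 held 7 at 50% and ELMO1 held 9 at 42.0%. FNDC3B had 14, ARHGAP24 had 9 and SND1 had 25. The kappaB consensus, the letter pattern bound by NF-kappaB, was searched on both strands and matched only NTRK2, at GGAGACTCCC, from 249 to 240 bases before the start. It matched 9.58% of all 27305 RefSeq promoters of that length, 1 per gene, and 11.4% of those of the transcribed members that could be matched. TATAAA, on either strand, matched FNDC3B alone, from 226 to 221 bases before the start, and 11.2% of all promoters. The AP-1 pattern TGANTCA matched none of the 6 and 6.57% of all promoters. A start used in these cells may differ from the outermost one.

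Of the 143 members with a mean RPKM of at least 0.5, 123 had a RefSeq promoter by symbol. CpG-rich windows, with a GC content above 50% and an observed over expected CpG above 0.6, made up 69.9% of them and 44.5% of all RefSeq promoters. The same check is void for the members under a mean RPKM of 0.01 and for the whole set, since too few of them (301 of 417 and 571 of 761) could be matched. The share is therefore not shown to be particular to the transcribed members.

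Most very long genes were silent or close to it in this T cell line. Members at an RPKM of at least 0.5 numbered 139 with DMSO, 138 with SM-164, 143 on CHO and 133 on CD30L+ CHO, which is 17.5% to 18.8% of the 761. By contrast, 37.9% to 39.9% of the 2408 genes of 100 to under 300 kb and 45.5% to 48.3% of the 5500 genes of 30 to under 100 kb passed that level. Below 10 kb, the share was 23.1% to 28.8% of 8378. Very long genes were therefore the class with the lowest share in every library. Yet they held 10.6%, 11.3%, 10.1% and 10.3% of the library totals.

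**Figure D1:**
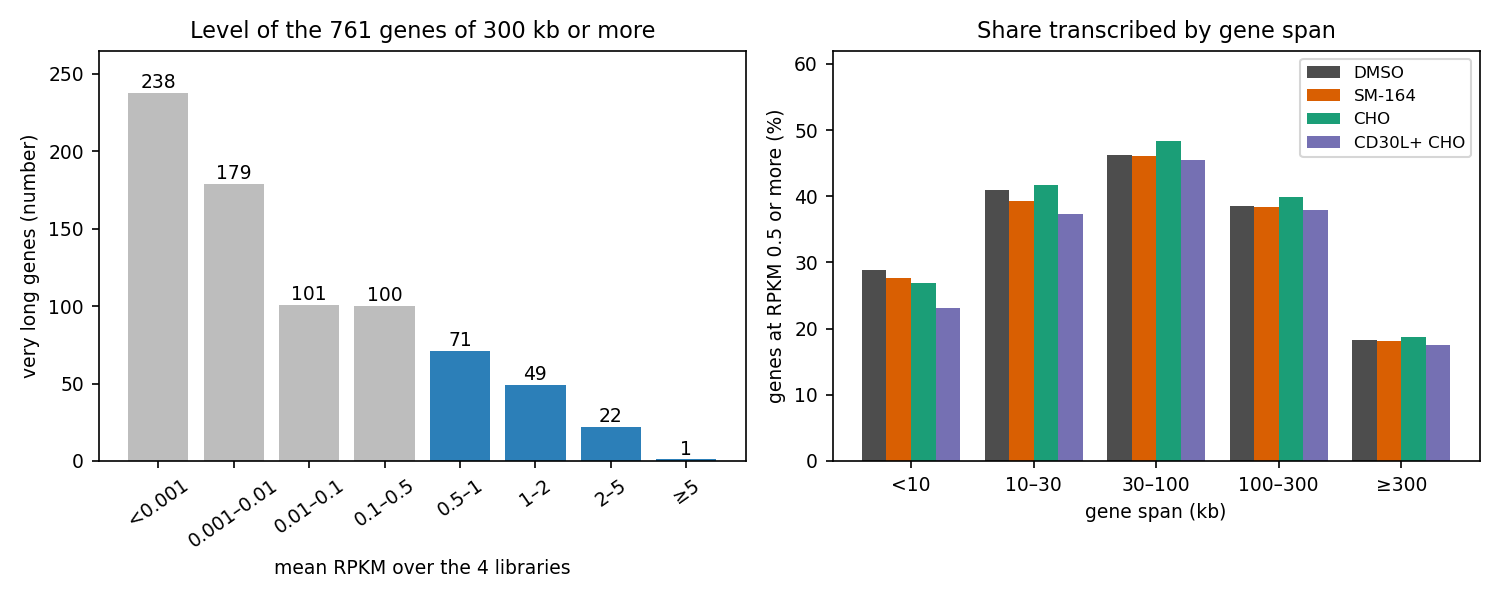
Left, number of very long genes (y axis) by mean RPKM over the 4 libraries (x axis), with blue bars at 0.5 or more. Right, percent of genes at an RPKM of 0.5 or more (y axis) by gene span in kb (x axis), with 1 bar per library; the lowest bars of each colour are those of the genes of 300 kb or more, at 17.5% to 18.8%.

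The levels fell into a long low tail and a short high end. A mean RPKM under 0.001 was found for 238 members, and 417 were under 0.01. At the other end, 71 lay from 0.5 to under 1, 49 from 1 to under 2, 22 from 2 to under 5, and 1, FNDC3B, above 5. The 143 members at 0.5 or more gave 82.5% to 85.2% of all reads on very long genes. In 36 members no library had a read, and 61 had at most 3 reads in each. At these depths 3 reads over 300 kb correspond to an RPKM of 0.000218 to 0.000381, so a member listed below that is not distinguishable from 0.

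Transcription at a member's own strand stood far above that on the opposite strand. Of the 131 transcribed members with an antisense entry, 128 were at least 10 times above it, and the median ratio of sense to antisense was 472. The 3 others were RALGAPA2 at 5.76 times, KIAA1217 at 6.44 times and PDZD2 at 9.46 times. For the 351 members under 0.01 with such an entry, the median was 0.000764 on the sense strand and 0.000303 on the antisense strand.

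Within the set, the longer genes were less often transcribed. Leaving out the 67 features of doubtful extent, 25.5% of the 275 members of 300 to under 400 kb, 22.3% of the 247 members of 400 to under 600 kb and 13.4% of the 119 members of 600 kb to under 1 Mb had a mean RPKM of at least 0.5. Only 1 of the 53 members of 1 Mb or more did. That member was PDE4D, a cyclic AMP phosphodiesterase of 1519060 bases, at 3.85, 3.87, 2.51 and 2.22. The giants CNTNAP2, a neuronal adhesion gene of 2304636 bases, and DMD, the dystrophin gene of 2220382 bases, had 13 to 20 and 17 to 32 reads per library. Across the 694 members of certain extent, span and mean RPKM had a Spearman correlation of -0.21, given as a description over genes that share the same libraries.

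FNDC3B, which encodes a membrane protein with fibronectin type III domains and lies at chr3:171757418-172118492, was the most transcribed very long gene in every library. Its RPKM was 11.3 with DMSO, 17.8 with SM-164, 9.02 on CHO and 19.4 on CD30L+ CHO. Both treated libraries were thus above both control libraries. After it came TANC2 (a scaffold protein) at 5.57, 5.92, 3.03 and 3.02, and ELMO1 (the adaptor through which DOCK proteins activate Rac) at 4.52, 5.40, 3.86 and 3.76. NCALD, a neuronal calcium sensor, had 4.25, 4.63, 2.80 and 2.85. SND1, a nuclease of the RNA-induced silencing complex, had 2.60, 2.72, 4.48 and 4.03. TANC2, ELMO1 and NCALD were thus lower in both co-culture libraries than in both drug libraries, and SND1 was higher.

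**Figure D2:**
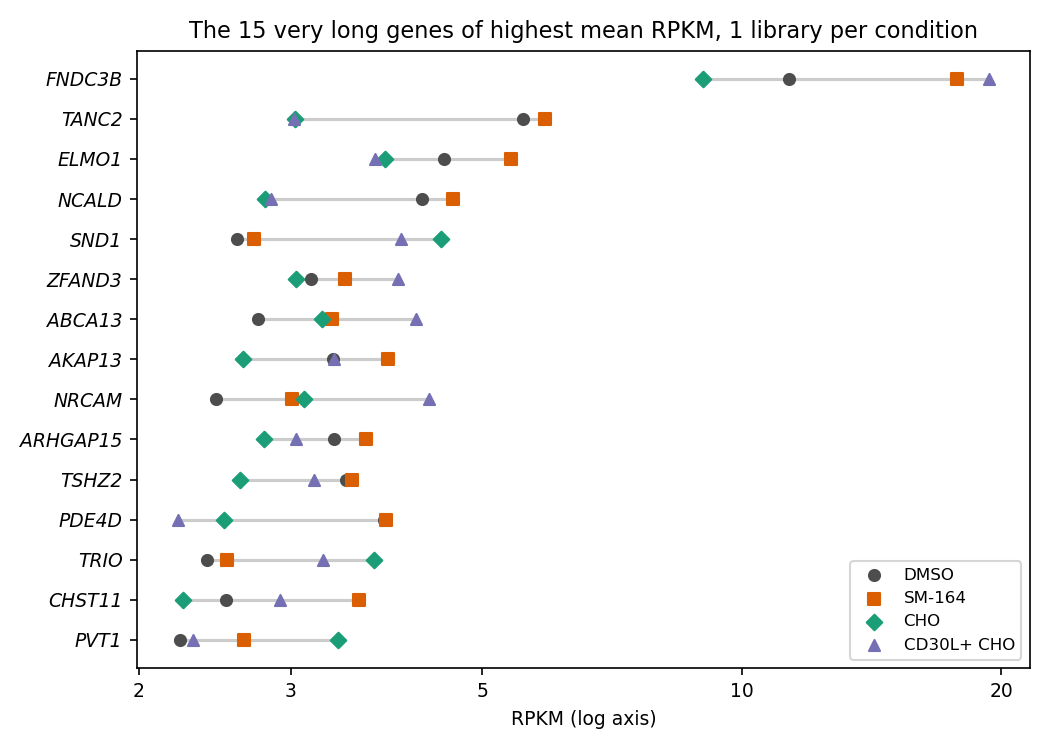
RPKM (x axis, log scale) of the 15 very long genes of highest mean level (y axis), with 1 point per library and a grey line from the lowest to the highest. FNDC3B stands alone at 9.02 to 19.4, and the other 14 lie between 2.22 and 5.92.

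The other members of the top 15 were ZFAND3, ABCA13, AKAP13, NRCAM, ARHGAP15, TSHZ2, PDE4D, TRIO, CHST11 and PVT1. They included NRCAM, an adhesion molecule known from neurons, at 2.46, 3.01, 3.11 and 4.34, and ABCA13, a transporter of the ABC family, at 2.75, 3.35, 3.26 and 4.19. Both were lowest with DMSO and highest on CD30L+ CHO. Marker genes were chosen with earlier results of these data known, so they describe the cells and are no check of their label. Of the anaplastic large cell lymphoma markers, 7 of 7 passed a mean RPKM of 0.5, with a summed RPKM of 54.6 to 105. None of 5 neuronal or 4 stromal and muscle markers did, and neither did 3 of 4 myeloid markers, CSF1R being the exception at 0.653 to 0.752. None of 5 B cell markers did either, but PAX5 among them had 0.292 to 0.394, with 2023 to 2900 reads per library. Neuronal markers summed to 0.00162 to 0.00349, and DCN and MYH7 were listed at 0 in every library. The neuronal markers RBFOX3, SYT1 and GRIN2B are themselves very long genes of this set. As these are bulk samples, fewer cells that transcribe a gene and less RNA per cell cannot be told apart.

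By role, the share of members transcribed was highest in the lymphocyte list and in the small GTPase regulator and cytoskeleton list. A gene can be in both, and the lists do not cover all transcribed members. In the list of lymphocyte transcription factor and signalling genes, 15 of 23 members had a mean RPKM of at least 0.5 and the median was 0.834, against 143 of 761 over all members. ELMO1, ARHGAP15 (a Rac GTPase-activating protein, 3.37, 3.67, 2.79 and 3.04), PDE4D and MAML2 (a coactivator of Notch) led it. Of the small GTPase regulator and cytoskeleton genes, 19 of 38 passed, with a median of 0.418. Besides ELMO1 and ARHGAP15, TRIO, a guanine nucleotide exchange factor, had 2.40, 2.53, 3.75 and 3.27, and ARHGAP26 had 2.77, 2.94, 2.56 and 2.13.

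Genes of the nucleus, of vesicle traffic and of metabolism lay in between. Among chromatin and transcription regulator genes, 17 of 44 passed with a median of 0.199. Their highest were TSHZ2 (a zinc finger homeobox protein), MAML2, MED13L (a Mediator kinase-module subunit, 2.05, 2.22, 2.00 and 2.34) and ATXN1 (1.73, 1.73, 2.08 and 1.82). Vesicle traffic and endocytosis genes passed in 9 of 26 cases (median 0.358), led by ASAP1, COG5, EXOC4 and VPS13B. Enzyme, DNA repair and metabolism genes passed in 14 of 48 cases (median 0.0526), led by PDE4D, FUT8, PCCA and PRIM2.

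The synapse, ion channel and fragile-site lists had the lowest medians, at 0.000631, 0.00183 and 0.0022. Over all 761 members, 417 were under 0.01 and 143 passed 0.5. Role was not separated from span here. Only ODZ4, a teneurin, passed among 67 synapse, axon guidance and neuronal adhesion genes, at 0.718, 0.756, 0.579 and 0.402, and 53 of the 67 were under 0.01 (median 0.000631). The next in that list were ODZ3 at 0.207 to 0.419, ASTN2 at 0.272 to 0.300, and SEMA6D at 0.132 to 0.236. ASTN2 was 1.18 times its antisense level, so its sense transcription was not separated from the opposite strand. Of 48 ion channel and neurotransmitter receptor genes, 37 were under 0.01 and 4 passed, all of them calcium channels or their subunits: RYR2, ITPR2, ITPR1 and CACNA2D3.

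Common fragile site genes also held a few transcribed members among many low ones. RORA, a nuclear receptor of lymphocytes, had 1.57, 1.58, 1.37 and 1.68, and DPYD, which breaks down pyrimidines, had 1.07, 1.07, 1.38 and 1.24. They were the 2 of 22 that passed, beside 143 of all 761 members. Under 0.01 were 15 of 22, beside 417 of all 761. WWOX, at the fragile site FRA16D, fell short at 0.472, 0.475, 0.212 and 0.214. FHIT, at FRA3B, had 0.00283, 0.00305, 0.00545 and 0.00303, so these 2 classical fragile-site genes differed widely in level in the same cells.

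**Figure D3:**
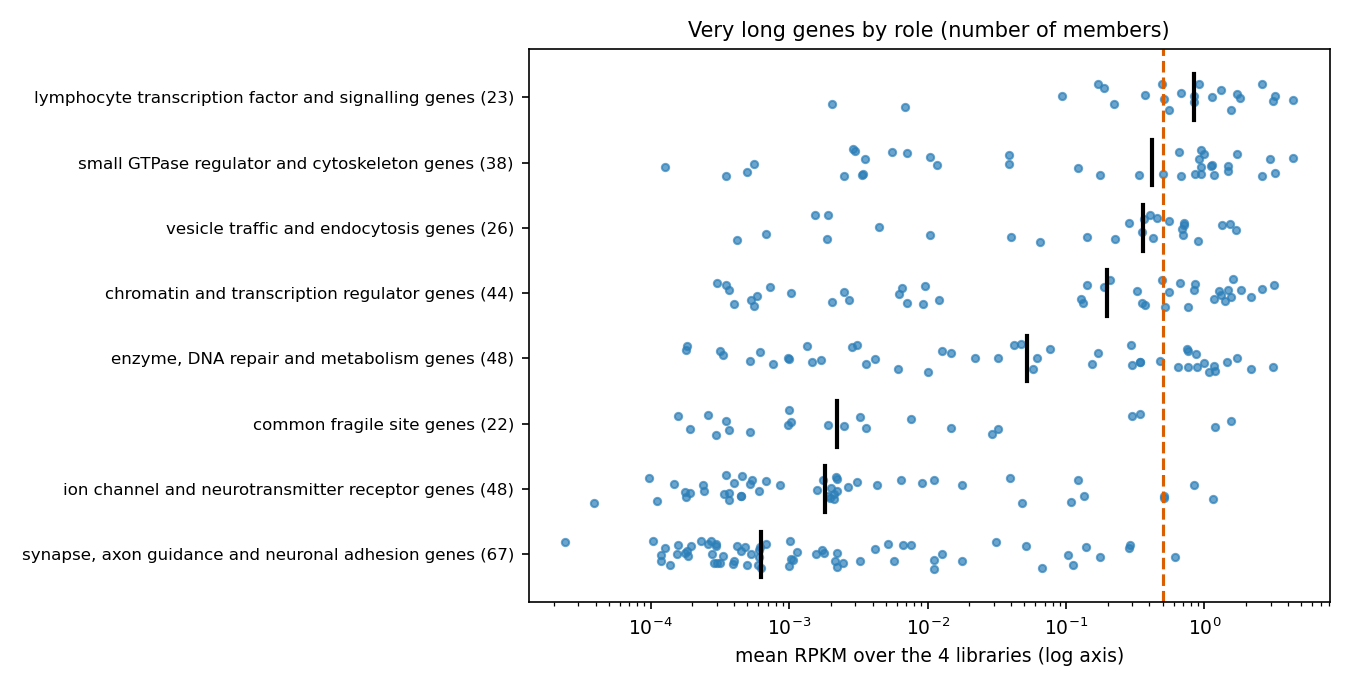
Mean RPKM over the 4 libraries (x axis, log scale) of the very long genes in 8 role lists (y axis, number of members in brackets), with 1 point per gene, a black bar at the median and an orange dashed line at 0.5. Medians run from 0.000631 for synapse and adhesion genes to 0.834 for lymphocyte genes; a gene can be in several lists.

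Averaged over the whole gene, the very long genes with SM-164 stayed close to their level with DMSO, and FNDC3B alone passed 1.5-fold. Exposure was 3 h, and a gene of this length takes hours to cross. A change in only part of a gene would thus be diluted, here and in the comparisons below. Changes along the gene were not tested. Differences are given as log2((RPKM + 0.25)/(control RPKM + 0.25)), which understates those of low genes, for members whose RPKM averaged 0.5 or more in the libraries compared. Of 137 such members, 1 was at least 1.5-fold higher, beside 0.787% of all 7881 genes tested, and 0 were at least 1.5-fold lower, beside 1.1% of all. Among the genes of 100 to under 300 kb, 0.647% were higher and 0% lower. FNDC3B had 1.57 times the reads per library total (95% exact conditional interval 1.56 to 1.58), or 0.64 on the log2 scale. No member reached 2-fold, as did 0.19% of all genes upward and 0.0634% downward.

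Behind FNDC3B came CHST11, a chondroitin sulfotransferase, at 2.52 with DMSO and 3.60 with SM-164 (0.47 on the log2 scale). ARHGAP10, a GTPase-activating protein, had 0.689 and 0.984 (0.39). ADAMTS12, a secreted metalloprotease, had 0.791 and 1.11 (0.39), and MYO3B, an unconventional myosin, had 0.874 and 1.22 (0.38). TCF4, an E-protein transcription factor, followed at 0.31, with PDZD2 at 0.30 and SGMS1, a sphingomyelin synthase, at 0.29. At the low end, MBD5, a methyl-CpG-binding-domain protein, had 0.640 and 0.555 (-0.14), and STAU2, VTI1A, TNS3, SMYD3, FAM172A, SSH2 and KIAA0146 lay between -0.10 and -0.06.

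The median log2 ratio of the 137 members was 0.04, with 105 above 0, while the median of all 7881 genes was -0.04. It rose with gene span over the classes: -0.17 under 10 kb, -0.07 from 10 to under 30 kb, -0.02 from 30 to under 100 kb, 0.02 from 100 to under 300 kb and 0.04 at 300 kb or more. Within the very long genes no further rise was seen, the medians being 0.05 for 300 to under 400 kb, 0.04 for 400 to under 600 kb and 0.01 for 600 kb to under 1 Mb. Span and log2 ratio had a Spearman correlation of -0.17 over the 136 tested members of certain extent. The share of reads on genes under 10 kb fell from 7.29% of the library total with DMSO to 6.05% with SM-164. Its part in the members' median was not tested.

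On CD30L+ CHO, 7 very long genes were at least 1.5-fold higher than on CHO and 0 were at least 1.5-fold lower, of 140 tested. Over all 7661 genes tested, 2.62% were higher and 4.99% lower by this rule. Among the genes of 100 to under 300 kb, 2.88% were higher and 0.961% lower, so few lowered genes were not particular to the members. The 7 were FNDC3B, NTRK2, ARHGAP24, FUT8, MAML2, ARHGAP10 and KIAA1217. FNDC3B alone passed 2-fold on the log2 scale, beside 0.979% of all genes upward and 0.731% downward.

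FNDC3B had 9.02 on CHO and 19.4 on CD30L+ CHO, with 2.15 times the reads per library total (95% lower bound 2.13). NTRK2 encodes TrkB, the receptor of brain-derived neurotrophic factor, and lies at chr9:87283466-87638505. It had 0.299, 0.436, 0.394 and 1.03, with 2.61 times the reads on CD30L+ CHO over CHO (2.54 to 2.69). ARHGAP24, a Rac GTPase-activating protein at chr4:86396284-86923823, had 0.306, 0.336, 0.383 and 0.977, with 2.55 times the reads (2.49 to 2.61). For NTRK2 and ARHGAP24, the library on CD30L+ CHO was above each of the 3 others. Both were under 0.5 on CHO and passed the minimum only through the library where they were high, so their calls were favoured by the filter.

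FUT8, which adds core fucose to N-glycans, had 1.02, 1.29, 2.25 and 4.13, with 1.84 times the reads on CD30L+ CHO (1.81 to 1.86). It was already higher on CHO than with DMSO. MAML2 had 2.18, 2.61, 2.03 and 3.61 (1.78 times, 1.76 to 1.81). ARHGAP10 had 0.689, 0.984, 0.640 and 1.13 (1.76 times, 1.72 to 1.81). KIAA1217 had 0.982, 1.13, 0.977 and 1.62 (1.65 times, 1.63 to 1.68). In MAML2, ARHGAP10 and KIAA1217, as in FNDC3B, both treated libraries were above both controls.

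None of the 8 members with the lowest log2 ratios on CD30L+ CHO was past 1.5-fold. TNS3, a tensin of focal adhesions, had 1.01, 0.955, 0.796 and 0.468 (-0.54). HDAC4, a class IIa histone deacetylase, had 1.36, 1.56, 1.11 and 0.690 (-0.53). PVT1, a long non-coding RNA gene beside MYC, had 2.23, 2.65, 3.41 and 2.31 (-0.51), and TIAM1, a Rac exchange factor, had 1.01, 1.03, 1.505 and 0.992 (-0.50). For PVT1 and TIAM1 the CHO library was the one apart, and the CD30L+ CHO value lay near that with DMSO. ACACA, the acetyl-CoA carboxylase of fatty acid synthesis, followed at -0.44, with MAST4, IQGAP2 and SLC9A9 at -0.41 to -0.40. Without the pseudocount, 3 members were at least 1.5-fold lower in reads.

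The median log2 ratio of the 140 members was -0.08, with 50 above and 90 below 0, against -0.12 for all genes. The trimmed mean scaling of edgeR (TMM) moved the median of all genes by 0.17, from -0.12 to 0.06, and put the members' median at 0.08, so the sign of the members' median depends on the scaling. Relative to the median of all genes, 83 members were above and 57 below. All 7 members called higher were also called under TMM, together with GTDC1 and NRCAM, and TNS3 stood at -0.40 there. In the list of small GTPase regulator and cytoskeleton genes, 2 of 19 tested were at least 1.5-fold higher (ARHGAP24, favoured by the filter as above, and ARHGAP10) and 0 lower (median -0.12), beside the 2.62% and 4.99% of all genes. The lymphocyte and the chromatin lists each had 1, MAML2, of 15 and 16 tested (medians 0.01 and 0.00). The enzyme list had 1, FUT8, of 14 tested (median -0.12).

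On the log2 scale with the RPKM minimum, FNDC3B had the highest ratio among very long genes under both treatments, and ARHGAP10 was also among the 8 highest in both. The 2 comparisons share no library. Of 129 members tested in both, 43 were above 0 in both, 28 below 0 in both, 56 above only with SM-164 and 2 above only on CD30L+ CHO. Over all 7210 genes tested in both, these numbers were 1192, 3646, 1552 and 820. The signs on CD30L+ CHO over CHO depend on the scaling, and under TMM 94 of 139 tested members were above 0 there. Spearman's correlation between the log2 ratios was 0.51 over these 129 genes and 0.40 over all 7210 genes tested in both. These are descriptions over genes of the same 4 libraries.

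**Figure D4:**
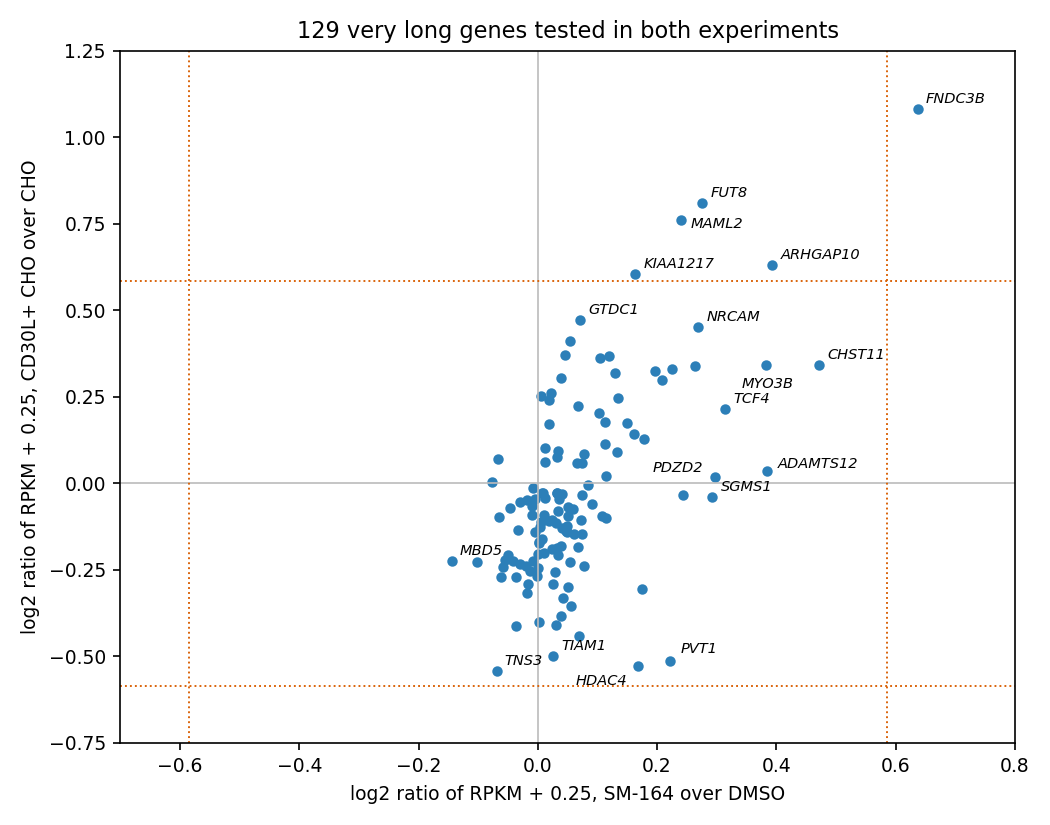
Log2 ratio of RPKM + 0.25 for SM-164 over DMSO (x axis) and for CD30L+ CHO over CHO (y axis), with 1 point per very long gene tested in both (129) and orange dotted lines at 1.5-fold. FNDC3B lies past the line in both directions at 0.64 and 1.08, and no member lies past a lower line.

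Below the RPKM minimum, long genes can still hold many reads, so a further rule, chosen after the values were seen, counted members with at least 200 reads over the libraries compared and a 2-fold difference in reads per library total. With SM-164, 1 of 357 members was higher, beside 0.247% of all 9708 genes that met the read minimum, and 0 were lower, beside 0.0309%. That member was TMEM132D, a transmembrane protein gene, at 0.0228 with DMSO and 0.0561 with SM-164, or 2.46 times the reads (2.23 to 2.72). On CD30L+ CHO, 9 of 394 members were higher, beside 1.26% of all 10313, and 11 were lower, beside 3.16%.

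The 9 higher members were PDE4B, SAMD12, NTRK2, ARHGAP24, RBMS3, HIVEP3, CDH13, FNDC3B and SLC2A13. PDE4B, a cyclic AMP phosphodiesterase like PDE4D, had 0.0948, 0.163, 0.0918 and 0.332, which is 3.61 times the reads on CD30L+ CHO (3.45 to 3.78) and 1.72 times with SM-164 (1.62 to 1.83). SAMD12 had 0.0732, 0.137, 0.0663 and 0.188, or 2.84 times (2.67 to 3.03) and 1.88 times (1.73 to 2.04). HIVEP3, a zinc finger protein that binds kappaB motifs, had 0.0920, 0.110, 0.0698 and 0.160. In PDE4B, SAMD12 and HIVEP3 both treated libraries were above both controls. The 11 lower members were NTRK3, HMCN1, CDH4, DIP2C, DOCK1, XYLT1, SORCS2, ST6GALNAC3, FMN2, MACROD2 and LDB2, all under 0.2 in every library. RBMS3 and MACROD2 were under 2 times their antisense level, at 1.33 and 0.631 times, so these calls are not separated from the opposite strand. NTRK3, which encodes the receptor of neurotrophin-3, had 192 reads on CHO and 53 on CD30L+ CHO.

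The 2 experiments were also compared, through their control libraries. CHO co-culture and DMSO differ in the contact with CHO cells, the way of collection and the experiment itself, which cannot be told apart here. Both libraries also serve in the comparisons above. Of 144 members tested, 7 were at least 1.5-fold higher on CHO (7.07% of all 8081 genes tested were) and 3 at least 1.5-fold lower (10.7% of all). The split was 3 higher and 7 lower under TMM, and 4 and 6 after centring all genes on 0, so the balance of higher and lower calls depends on the scaling. Without rescaling, 4.11% of the genes of 100 to under 300 kb were higher and 3.68% lower. The members' median was -0.05, against 0.06 for all genes.

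ITPR1 and RYR2, both calcium release channels of internal stores, lay at opposite ends. ITPR1, an inositol trisphosphate receptor at chr3:4535032-4889524, had 0.246, 0.257, 0.768 and 0.777 (1.04 on the log2 scale, CHO over DMSO), and it passed the minimum only through the CHO library. RYR2, the ryanodine receptor known from heart muscle, at chr1:237205702-237997288, had 1.63, 1.61, 0.774 and 0.573 (-0.88). In each, the 2 libraries of an experiment lay together and those of the other apart. MAST4, a serine/threonine kinase, was the other member past 2-fold, at 0.555, 0.535, 1.38 and 0.972 (1.01), where 0.879% of all genes were 2-fold higher. No member was 2-fold lower on this scale, beside 4.52% of all genes and 13 of 950 genes of 100 to under 300 kb.

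The other members called higher on CHO were FUT8 (0.97), SND1 (0.73), RALGAPA2 (0.63, also under 0.5 with DMSO), IQGAP2 (0.61) and TRIO (0.59). The highest 8 also took in PVT1 at 0.56. TANC2 (-0.83) and PITPNC1, a phosphatidylinositol transfer protein (-0.63), were the other members called lower. POLA1, the catalytic subunit of DNA polymerase alpha, was at -0.58, and PDE4D, NCALD, PCCA and STK3, a kinase of the Hippo pathway, were at -0.57 to -0.49.

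Weakly transcribed members were compared between the experiments by their reads. Of 434 members with at least 200 reads over the 4 libraries, 39 had both co-culture libraries at least 2-fold above both drug libraries in reads per library total, beside 3.13% of all 11326 genes, and 22 had both at least 2-fold below, beside 2.76% of all. This rule too was chosen after the values were seen. CHO against DMSO alone gave 49 of 385 members 2-fold higher in reads, beside 4.62% of all 10338 genes, and 21 lower, beside 4.61%. All but ITPR1 among the 39, and all but RYR2 among the 22, had a mean RPKM under 0.5, and 33 of the 39 were under 0.1 in every library. Their levels are thus low, and they are given as reads.

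ANK3, which encodes the membrane scaffold ankyrin-G, had 295 and 246 reads with DMSO and SM-164, and 6975 and 7853 on CHO and CD30L+ CHO. ESR1, the estrogen receptor alpha gene, had 9 and 9 against 249 and 212, and PDE10A, a cyclic nucleotide phosphodiesterase, had 10 and 10 against 331 and 249. These 3 had 13.6 to 15.99 times as many reads per library total in co-culture, between the nearest values. PIEZO2, a mechanically gated channel, had 11 and 7 against 354 and 184, but its mean level was 1.02 times that on the opposite strand, so its sense transcription was not separated from antisense. The same holds for 5 more of the 38 with an antisense entry (FAM13A, GPC6, DOCK3, RBMS3 and ODZ1), all under 2 times their antisense level, and for JAZF1 among the 22. GPHN, the gephyrin gene, was among the highest of the 39, at 0.1198, 0.110, 0.495 and 0.450, with NCAM2 at 0.0390, 0.0364, 0.200 and 0.173.

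In the other direction, SOX5, an HMG-box transcription factor, had 11942 and 11439 reads in the drug libraries and 1605 and 1744 in the co-culture libraries. DACH1, a transcription cofactor, had 1562 and 1107 against 110 and 102. NELL1, a secreted protein gene, had 562 and 449 against 38 and 20, the widest gap at 20.7 times between the nearest values. LOC647946, a gene of uncharacterised product, had 0.405, 0.382, 0.0917 and 0.0728. WWOX was among the 22, with 2.21 times more reads per library total in the lower drug library than in the higher co-culture library.

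Some role lists held members of both directions, and others held members of a single direction. Of the 24 synapse, axon guidance and neuronal adhesion genes with at least 200 reads, 5 were higher (CDH4, NCAM2, CNTN4, ROBO1 and ODZ1) and 2 lower (SEMA5A and DCC) in co-culture, where all genes gave the 3.13% and 2.76% above. ODZ1 was at 0.117 times its antisense level. Of 16 ion channel genes, 2 were higher (ITPR1 and CACNA1A) and 4 lower (CACNA1C, CACNA1E, GRIK2 and RYR2). Of 32 small GTPase regulator and cytoskeleton genes, 4 were higher (ANK3, MYO1D, ANK2 and DOCK3, the last at 0.982 times its antisense level) and 0 lower. With counts this small, nothing particular to a list is read from them. Of 22 lymphocyte genes, 1 was higher (ITPR1) and 0 lower. The chromatin list had 4 higher and 1 lower of 34, and the enzyme list 4 and 2 of 36. The fragile-site list had 1 and 2 of 13, and the vesicle list 1 and 0 of 22. Markers differed between the experiments too. Among those of the line itself, TNFRSF8, which encodes CD30, had 9.59, 12.3, 4.97 and 5.10. PRF1 had 7.33, 5.67, 2.87 and 1.89, and GZMB had 5.81, 4.56, 2.66 and 1.93. IL2RA was also lower in both co-culture libraries, at 24.3, 28.9, 14.7 and 23.3. BATF3 (12.1, 19.8, 4.94 and 13.3), SERPINA1 (4.41, 4.71, 3.62 and 8.35) and IL22 (20.4, 27.6, 20.8 and 51.1) were not. Stromal and muscle markers had a summed RPKM of 0.111 and 0.0870 in the drug libraries and 0.0168 and 0.00456 in co-culture, while neuronal markers stayed at 0.00349 or less. The stromal and muscle sum rests on few reads, those of COL1A1 (14, 9, 4 and 1) and COL1A2 (40, 28, 3 and 0). The part of the markers in the differences between the experiments was not tested.

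**Figure D5:**
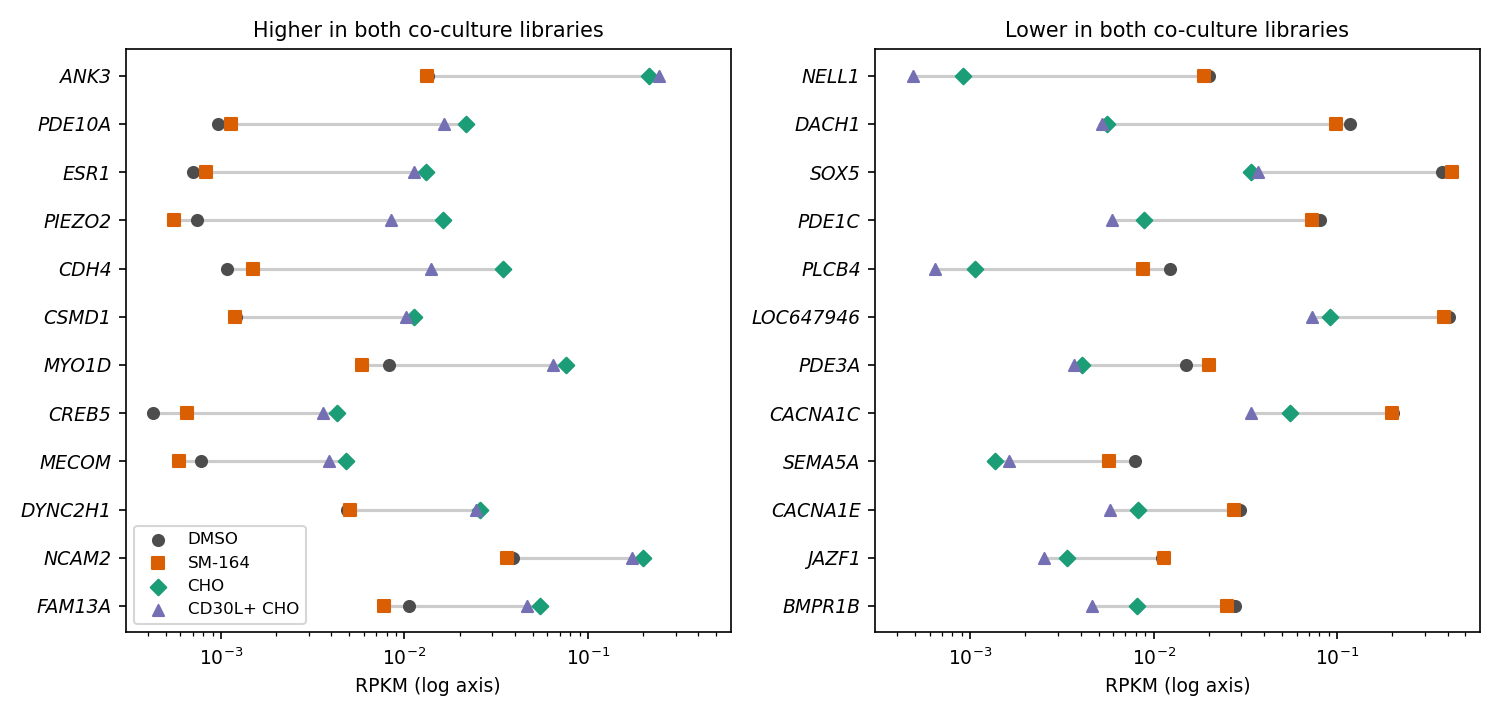
RPKM (x axis, log scale) of the 12 very long genes with the widest gaps between the experiments in each direction (y axis), with 1 point per library. Left, both co-culture libraries above both drug libraries, by 11.4 to 15.99 times between the nearest reads per library total for the first 4, of which PIEZO2 was not separated from its antisense strand; right, both below, by up to 20.7 times for NELL1.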

How the data were processed

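Nascent RNA of 4 Bru-seq libraries was used, 1 per condition. The submitters' processing notes name TopHat 1.4.1, Bowtie 0.12.8, bedtools 2.16.2 and CASAVA 1.8.2, with the build hg19. No source used here names a gene annotation. The authors deposited an estimated count of reads per feature, over exons and introns together, of which 60.6% to 70.8% of the non-zero values were within 0.001 of a whole number. The authors deposited the RPKM beside it. The library totals recovered from both were 31030478, 26217590, 45885631 and 45535366 reads (DMSO, SM-164, CHO, CD30L+ CHO), and a value of 0 allows up to 3 reads.

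Members were sense features with a span of at least 300000 bases, the entry with most counted bases being kept for 6 repeated symbols; 1 further symbol is not reported here. Log2 ratios used a pseudocount of 0.25 RPKM, a minimum of 300 counted bases and an average RPKM of 0.5. Ratios of reads used counts rounded to whole numbers, with exact conditional 95% Clopper-Pearson intervals (Python 3.11.15, scipy 1.17.1). TMM factors came from edgeR 4.0.16; no count test was run. The calculation was tested on simulated data.

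The members, role lists and markers were chosen with earlier results of these data known. The genes named were the 15 of highest mean RPKM, the 8 highest and 8 lowest log2 ratios of each comparison, every member at 2-fold, the 5 of largest span, 3 on each side of the length limit, fragile-site genes at a mean RPKM of 0.5, and the 4 highest of each other list; other names were chosen after their values were seen. Promoters came from RefSeq (GRCh38.p14), matched for 522 members by symbol and 49 by an older symbol.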

Additional observations from a re-analysis of the deposited data

How the results depend on the processing

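No paired analysis was possible because each condition has 1 library. Of 139 values recomputed, 88 kept within the limit set for them (1.5 times for a count, and for a median the median counting half-width of its members, 0.03 on the log2 scale) and 51 did not; the cause was not tested except where the setting itself changes which genes enter. The median log2 ratio with SM-164 was 0.00 with no expression minimum and 0.081 with all genes centred on 0. The 1 member higher with SM-164 became 0 at 2-fold and 0 at a span of at least 400000, since FNDC3B is shorter. On CD30L+ CHO the median of -0.08 became -0.043 with a pseudocount of 1, 0.00 (-0.0025) with no expression minimum, -0.041 at a mean RPKM of at least 1, 0.040 with all genes centred on 0 and 0.079 under TMM. The 7 higher there became 3 with a pseudocount of 1, 4 at a mean RPKM of at least 1, 2 at a span of 400000, 11 at a span of 200000 and 1 at 2-fold; the 0 lower became 2 with a pseudocount of 0.1, 1 at a span of 200000 and 3 without a pseudocount. For CHO against DMSO the median of -0.05 became 0.00 (0.00078) with no minimum, -0.11 at a mean RPKM of 1, -0.11 with all genes centred on 0, -0.14 under TMM and -0.020 at a span of 200000. The 7 higher became 3 with a pseudocount of 1, 11 with no minimum, 4 at a mean RPKM of 1, 4 when centred, 3 under TMM, 2 at a span of 400000, 19 at 200000, 2 at 2-fold and 11 without a pseudocount. The 3 lower became 5 with a pseudocount of 0.1, 1 with a pseudocount of 1, 6 with no minimum, 6 when centred, 7 under TMM, 10 at a span of 200000, 0 at 2-fold and 8 without a pseudocount. Members transcribed with DMSO, SM-164, CHO and CD30L+ CHO were 77, 81, 71 and 73 at an RPKM of at least 1, 71, 70, 74 and 69 at a span of 400000, and 325, 322, 334 and 312 at a span of 200000. The settings without a pseudocount and without the 67 features of doubtful extent were added after the data were seen, and leaving out those features moved none of these values past its limit. Depth limits the low members: 200 reads over a pair of libraries were needed before a read ratio was read.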
